A study of Mus musculus with 7 samples.

Results

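Kinesins and cytoplasmic dynein are the motor proteins that walk along microtubules, and this section describes their mRNAs in cortical neurons of embryonic mice that lack most Kat7 mRNA. The members were all rows of the gene count table whose mouse symbol belongs to a numbered kinesin (Kif or Kifc), a kinesin light chain (Klc) or a cytoplasmic dynein subunit (Dync). The rule matched 53 of 26286 rows, and 51 of these had at least 1 read. Of the 51, 45 passed the filter on low counts and were tested. The other 6 (Klc3, Kif17, Kif6, Kif9, Kif19a and the pseudogene Kifc5c-ps) had 23 to 56 reads in all 7 libraries together. Kif12 and Kif2b had 0 of 59917615 counts, which allows a level of up to 0.0501 CPM (the count scaled to the total of the library), for counting error only.

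The libraries were polyA RNA-seq of cells labelled as cortical neurons, taken from brains of male C57BL/6 embryos (E16.5, days of gestation). There were 3 wild type and 4 KAT7 mutant libraries, which the design text gives as separate mice. No source used here gives the allele, a Cre driver or the way the neurons were isolated. KAT7 is a histone acetyltransferase, and Kat7 counts were 848 to 869 in the wild type libraries and 3 to 10 in the mutant libraries.

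Most kinesins step toward the plus ends of microtubules, which point outward in axons, and cytoplasmic dynein-1 steps toward the minus ends and brings cargo back to the cell body. A separate set of kinesins builds, aligns and separates the mitotic spindle and is used mainly by dividing cells. Dynein-2 and a few kinesins work in the primary cilium. A cortex at this age holds both neurons that are growing axons and a smaller pool of dividing progenitors.

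Between the genotypes, the dynein intermediate chain gene Dync1i1 and the kinesin gene Kifc2 fell by over 2-fold, and the other tested motors stayed within 2-fold. By the quasi-likelihood test of edgeR with Benjamini-Hochberg adjustment over all 13681 tested genes, 6 of the 45 tested motors were higher and 5 lower in KAT7 mutant. That is 24.4% of the motors, and 28.9% of all tested genes were called (13.1% higher and 15.8% lower). The median log2 fold change was -0.03 for the motors and 0.00 for all tested genes. The levels of 14 motors did not overlap between genotypes, as did those of 35.3% of all tested genes. Of the 11 calls, those of Dync1i1, Dync1h1, Dync1li2, Kif5c and Kifc2 held in all 16 refits (other normalizations, filters and tools, and each library left out). Those of Kif1a, Kif5a, Klc4, Kif7, Kif27 and Dync2h1 were each lost in at least 1. In bulk libraries fewer cells of a type and less RNA per cell cannot be told apart.

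The number of calls depended on single libraries. Without wild type replicates 1, 2 and 3 in turn, 3, 4 and 5 motors were higher (10.5%, 9.19% and 9.78% of all tested genes) and 3, 5 and 2 lower (13.8%, 13.5% and 13.2% of all). Leaving out KAT7 mutant replicates 1 to 4 in turn gave 5, 4, 7 and 4 higher (13.1%, 11%, 11.9% and 11.2% of all) and 9, 3, 4 and 3 lower (16.3%, 14.6%, 15.1% and 14.7% of all). The 9 lower calls without KAT7 mutant replicate 1 included 4 more kinesins, 3 of them mitotic, which are described with their class. By DESeq2, 5 were higher and 3 lower (10.4% and 12.6% of all), and by limma-voom 6 and 5 (13% and 15.9%). At an adjusted p under 0.01, edgeR called 3 higher and 3 lower (7.56% and 11.2% of all), and with no filter on counts 6 and 6 (9.25% and 11.9% of 20196 genes).

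**Figure D1:**
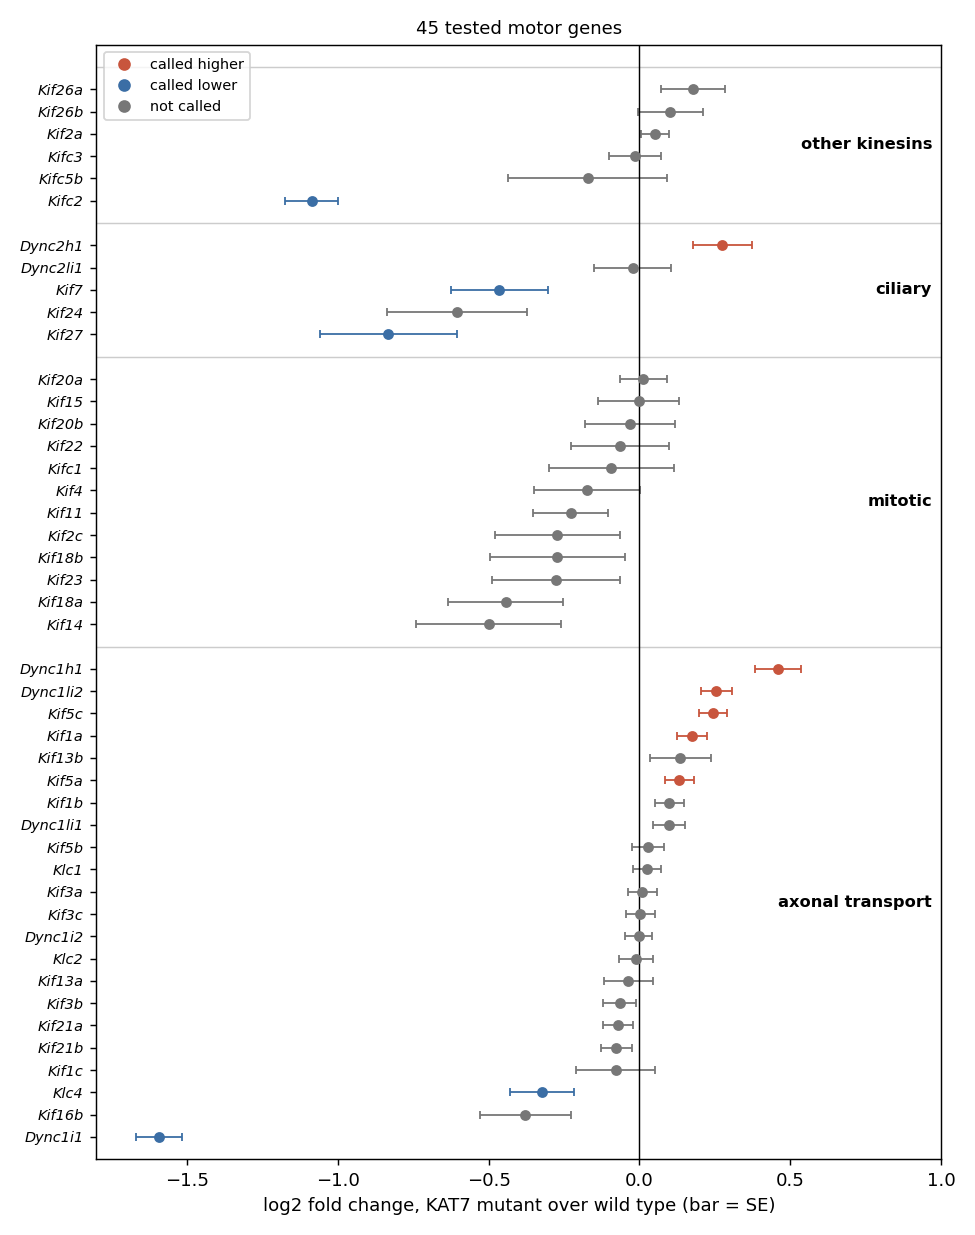
Log2 fold change (KAT7 mutant over wild type, x axis) of the 45 tested motor genes (y axis), grouped by class; points are edgeR estimates from 3 and 4 libraries, bars are SE and colour gives the call. Dync1i1 at -1.59 and Kifc2 at -1.09 lie left of all the others, and the 12 mitotic kinesins are all grey.

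Axonal transport motors, as grouped here, are the kinesin-1, kinesin-2 and kinesin-3 families, the kinesin-4 members Kif21a and Kif21b, the kinesin light chains and dynein-1. Of 22 tested, 5 were higher and 2 lower (31.8%), where 30.5% of all genes in the same range of levels were called. That range is wide and holds 10196 of the 13681 tested genes. The median level was 251 CPM in the class and 24.6 CPM over all tested genes, so the 2 sets are not matched in level. Their median log2 fold change was 0.01, and it lay between -0.01 and 0.02 over the refits. Of 12 tested mitotic kinesins none was called, with a median of -0.20. The difference between the classes was not tested.

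Dynein-1 is built on a heavy chain (Dync1h1), which holds the motor domain, with intermediate chains (Dync1i1 and Dync1i2) that bind dynactin and light intermediate chains (Dync1li1 and Dync1li2) that bind cargo adaptors. Dync1i1 is the intermediate chain gene known for its expression in neurons, while Dync1i2 is broadly expressed. Levels of Dync1i1 were 188, 192 and 209 CPM in wild type replicates 1 to 3 and 63.1, 78.4, 57.5 and 61.5 CPM in KAT7 mutant replicates 1 to 4. Every mutant library thus lay far below every wild type library. The wild type mean was 197 ± 11.2 and the mutant mean 65.1 ± 9.14 CPM (SD, n = 3 and 4), 3.02-fold lower. In log2 units this was -1.59 ± 0.08 (SE; edgeR adjusted p 5.44e-12), and of the 2163 genes called lower, 183 (itself included) fell at least as far. The fold change was between -1.70 and -1.54 in all refits.

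The paralogue Dync1i2 had the same level in both genotypes within the error. Its levels were 270, 276 and 268 CPM in wild type and 277.5, 271, 267 and 267 CPM in KAT7 mutant, and the ranges overlapped. The log2 fold change was 0.00 ± 0.05 (SE), with a 95% interval of -0.09 to 0.09. Per kilobase of the deposited gene length, Dync1i1 made up 38.3%, 38.2% and 40.9% of the intermediate chain mRNA in the wild type libraries. In the mutant libraries it made up 16.8%, 20.4%, 16.04% and 17.0%. Summed, the intermediate chains stood at 183 ± 3.55 CPM per kilobase in wild type and 134.5 ± 4.19 in KAT7 mutant (SD, n = 3 and 4), and the ratio of Dync1i2 to Dync1i1 per kilobase was 1.56 ± 0.0989 and 4.74 ± 0.586.

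The promoter sequences of this pair are shown because the genes encode versions of the same subunit and only Dync1i1 changed. Each run is the 150 bases before a transcription start in RefSeq (build GRCm38.p6), 5′ to 3′ on the strand of the gene, and Dync1i2 has 2 starts in that table. Dync1i1 lies at chr6:5725489-5725638 and the Dync1i2 stretches at chr2:71211556-71211705 and chr2:71211796-71211945, all on the plus strand. Capitals mark the motif TTTAAA, one of 3 motifs searched (with CCAAT and TTTGAA, described with the mitotic kinesins).
Dync1i1: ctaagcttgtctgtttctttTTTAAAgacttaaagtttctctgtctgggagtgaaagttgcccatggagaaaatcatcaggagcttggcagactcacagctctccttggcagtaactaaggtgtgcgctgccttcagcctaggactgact
Dync1i2, first start: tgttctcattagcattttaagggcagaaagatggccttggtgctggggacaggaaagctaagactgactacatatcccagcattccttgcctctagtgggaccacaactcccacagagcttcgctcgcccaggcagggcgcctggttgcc
Dync1i2, second start: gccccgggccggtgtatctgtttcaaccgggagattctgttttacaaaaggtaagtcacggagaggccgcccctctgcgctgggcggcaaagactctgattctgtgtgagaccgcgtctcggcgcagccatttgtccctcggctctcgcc

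The Dync1i1 stretch is 46.0% G or C and holds 1 CpG, the dinucleotide at which vertebrate DNA is methylated. The Dync1i2 stretches are 54.7% and 60.7% G or C with 3 and 13 CpG. Over windows of 300 bases (250 before the start and 50 after it), Dync1i1 had 6 CpG, the Dync1i2 windows had 6 and 25, and the median of the 46 windows of 41 motor genes in the table was 26, against 7 over all 32851 windows. No measurement of DNA or chromatin was made in these libraries, so these sequences are a description only.

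Dync1h1, the heavy chain, was higher in KAT7 mutant. It stood at 1130, 1012 and 928 CPM in the wild type libraries and at 1444, 1445, 1170.3 and 1566 CPM in the mutant libraries. The ranges did not overlap, but KAT7 mutant replicate 3 lay close to wild type replicate 1. The log2 fold change was 0.46 ± 0.08 (SE), with an edgeR adjusted p of 0.000132 and means of 1024 ± 101 and 1406 ± 168 CPM (SD, n = 3 and 4). The ratio of Dync1i1 to Dync1h1 per kilobase went from 1.02 ± 0.155 to 0.244 ± 0.0341.

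Dync1li2 was also higher, at 187, 206 and 207 CPM in wild type and 246, 237, 240.2 and 230.2 CPM in KAT7 mutant, with no overlap. Its log2 fold change was 0.25 ± 0.05 (SE), edgeR adjusted p 0.000791. The related Dync1li1 was not called, at 147, 149 and 156 CPM in wild type and 172, 153, 165 and 156 CPM in KAT7 mutant, a log2 fold change of 0.10 ± 0.05 (SE). Of the 5 dynein-1 mRNAs, 2 were thus higher, 1 lower and 2 not called in the same libraries. Among all tested genes 13.1% were higher and 15.8% lower.

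**Figure D2:**
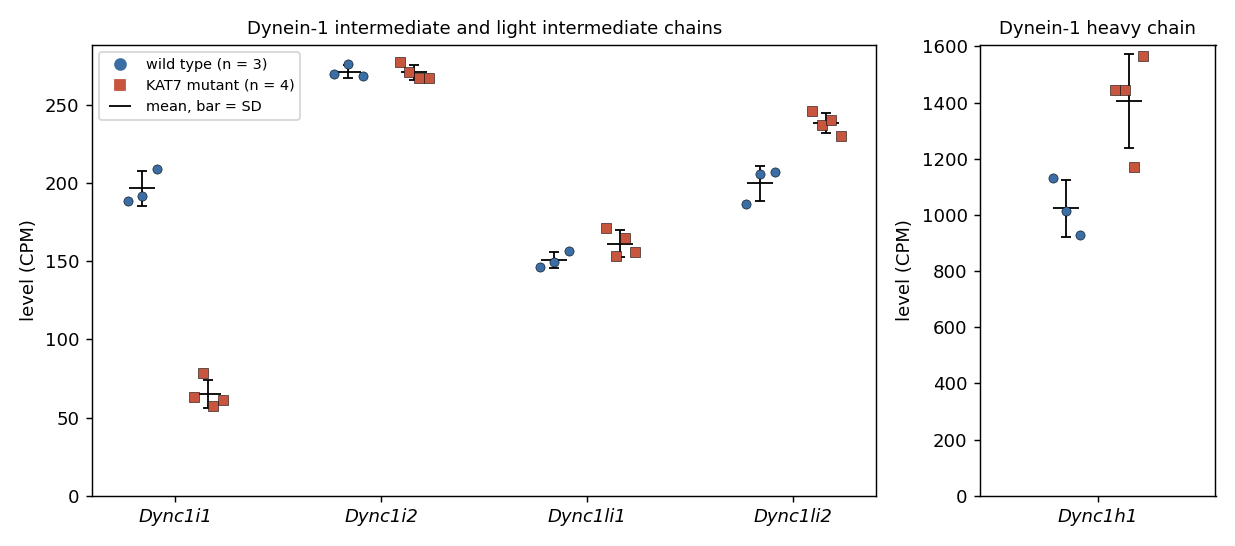
Levels (CPM, y axes starting at 0) of the dynein-1 genes in each library; circles are wild type (n = 3), squares KAT7 mutant (n = 4), lines the mean and bars the SD. The mutant squares of Dync1i1 lie at 57.5 to 78.4 CPM and its wild type circles at 188 to 209 CPM, while those of Dync1i2 overlap.

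Kinesin-1, the best known motor of fast axonal transport, pairs a heavy chain (Kif5a, Kif5b or Kif5c) with light chains that bind cargo. Kif5a and Kif5c are the neuronal heavy chains and Kif5b is made in most cells. Kif5c was the most abundant motor mRNA per kilobase in both genotypes, with 205 ± 9.23 CPM per kilobase in wild type and 243 ± 3.94 in KAT7 mutant (SD, n = 3 and 4). Its levels were 1342, 1468 and 1394 CPM in the wild type libraries and 1634, 1683, 1638 and 1683 CPM in the mutant libraries. All mutant libraries were higher, by a log2 fold change of 0.24 ± 0.05 (SE), edgeR adjusted p 0.000382.

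Kif5a changed less. Its levels were 459, 454 and 455 CPM in wild type and 525, 491, 472 and 510.5 CPM in KAT7 mutant, which did not overlap. The log2 fold change of 0.13 ± 0.05 (SE) had an edgeR adjusted p of 0.0435, close to the threshold of 0.05. The call was lost in 10 of 16 refits, where the adjusted p ran up to 0.13; leaving out any library other than KAT7 mutant replicate 3 ended it. Kif5b was not called, with 235, 262 and 239 CPM in wild type and 262, 256, 237 and 245 CPM in KAT7 mutant, a log2 fold change of 0.03 ± 0.05 (SE).

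Summed per kilobase, the kinesin-1 heavy chains stood at 301, 323 and 308 CPM per kilobase in wild type and at 357, 359, 346 and 359.5 in KAT7 mutant. Within this sum, Kif5c made up 65.9% ± 0.613 in wild type and 68.3% ± 1.00 in KAT7 mutant, and Kif5b 13.1% ± 0.326 and 11.7% ± 0.412 (SD, n = 3 and 4). Kif5c thus remained the main heavy chain mRNA in every library.

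Among kinesin light chains, Klc1 is the main one of neurons, and it made up 73.2% ± 0.605 of light chain mRNA per kilobase in wild type and 74.4% ± 0.788 in KAT7 mutant. Klc1 levels were 451, 437 and 462 CPM in wild type and 465, 476, 449 and 443 CPM in KAT7 mutant, a log2 fold change of 0.03 ± 0.05 (SE). Klc2 stood at 138, 128 and 139 CPM and at 141, 137, 125 and 133 CPM, a log2 fold change of -0.01 ± 0.06 (SE). Neither was called, and the ranges of both overlapped.

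Klc4, a light chain gene of low level here, had 19.9, 17.9 and 21.9 CPM in wild type and 17.5, 15.1, 15.2 and 15.9 CPM in KAT7 mutant. It was called lower, at a log2 fold change of -0.32 ± 0.11 (SE) and an edgeR adjusted p of 0.0271. The call was lost in 7 of 16 refits, among them DESeq2 and those that left out wild type replicate 1 or 3 or any of the KAT7 mutant replicates 2, 3 and 4, with an adjusted p of up to 0.152. Klc3 was not tested and had 4 to 10 reads in each wild type library and 0 to 3 in each mutant library; in the GRCm38 annotation 28.1% of its exon bases overlap Ercc2 on the opposite strand, and no source used here says whether the counting used strand. With no filter on counts it was called lower (-2.49, edgeR adjusted p 0.00583).

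**Figure D3:**
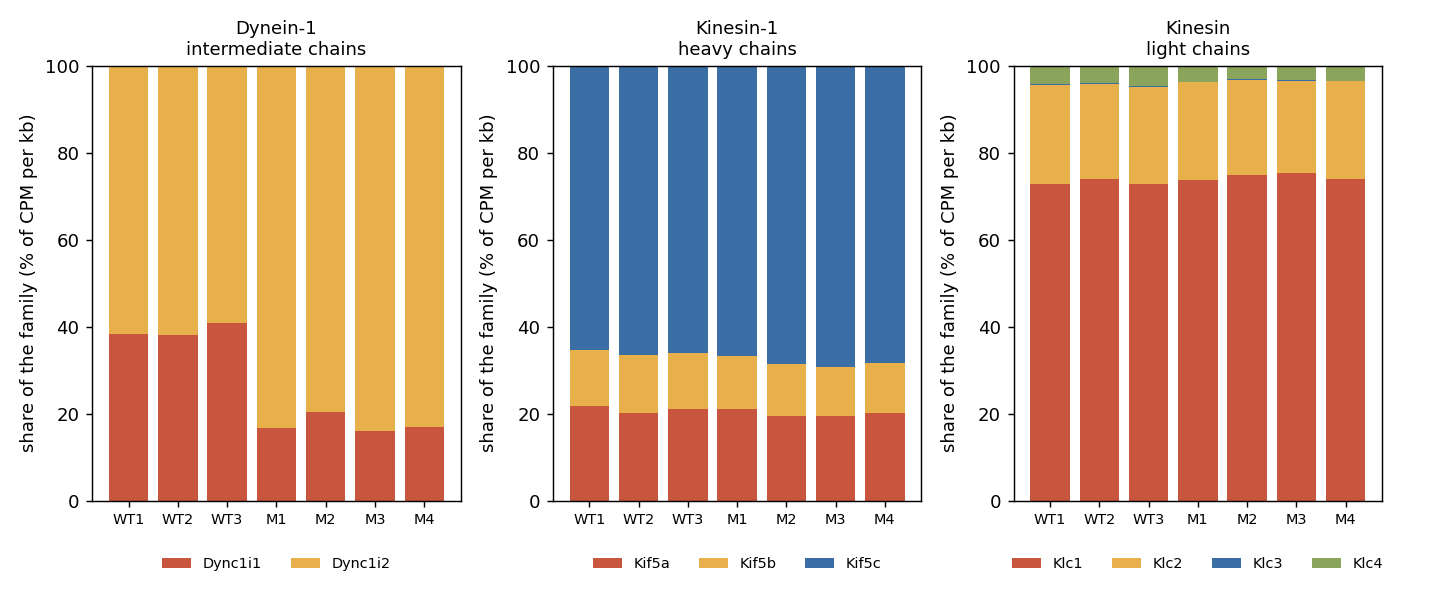
Share of each gene in its family (percent of CPM per kilobase, y axis) in wild type libraries (WT1 to WT3) and KAT7 mutant libraries (M1 to M4). Dync1i1 takes 38.2% to 40.9% of the intermediate chain bars in wild type and 16.04% to 20.4% in KAT7 mutant, while the kinesin-1 and light chain bars differ little.

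Kinesin-2, which carries vesicles in axons and builds cilia, showed no call. Its tested motors Kif3a, Kif3b and Kif3c had log2 fold changes of 0.01, -0.07 and 0.00, with SE of 0.05 each, and none was called in any refit or had an unadjusted p under 0.05. Kif3c, the neuronal one, stood at 409, 439 and 443 CPM in wild type and 419, 443, 412 and 451 CPM in KAT7 mutant. In the GRCm38 annotation 35.3% of Kif3c exon bases overlap the gene 1110002L01Rik on the opposite strand.

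Kinesin-3 motors carry synaptic vesicle precursors and dense-core vesicles (Kif1a), and mitochondria and vesicles (Kif1b). Kif1a was called higher, with 933, 970 and 980 CPM in the wild type libraries and 1056, 1113, 1011 and 1155 CPM in the mutant libraries. The ranges did not overlap, at a log2 fold change of 0.17 ± 0.05 (SE) and an edgeR adjusted p of 0.0126. The call was lost without wild type replicate 1 and with the replicate number as a block, with an adjusted p of up to 0.0622. Kif1b, at 956, 981 and 946 CPM in wild type and 1030, 1036, 971 and 1081 CPM in KAT7 mutant, was not called (log2 fold change 0.10 ± 0.05, edgeR adjusted p 0.119), except without KAT7 mutant replicate 3.

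The other kinesin-3 genes had lower levels and no calls. Kif13a, Kif13b and Kif1c had log2 fold changes of -0.04, 0.14 and -0.08. Kif16b, which moves early endosomes, lay at 7.01 to 8.12 CPM in wild type and 5.14 to 6.61 CPM in KAT7 mutant without overlap, at a log2 fold change of -0.38 ± 0.15 (SE) and an edgeR adjusted p of 0.0656. The kinesin-4 genes Kif21a and Kif21b, which restrain microtubule growth in neurons, were not called, at -0.07 and -0.08 with SE of 0.05.

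Ciliary motors were of low level, and 3 of 5 tested were called, against 28.9% of all tested genes; no call among the 3 held in every refit. Kif27, a relative of the hedgehog pathway kinesin Kif7, fell from 3.21, 4.12 and 4.53 CPM in wild type to 2.57, 2.55, 1.89 and 1.83 CPM in KAT7 mutant. Its log2 fold change was -0.83 ± 0.23 (SE), edgeR adjusted p 0.00877, and it was not called without wild type replicate 3 (edgeR adjusted p 0.0528). Kif7 fell from 7.01, 6.41 and 8.49 CPM to 5.61, 4.87, 5.79 and 4.89 CPM, at -0.46 ± 0.16 (SE) and an edgeR adjusted p of 0.0345. Its call was lost in 6 of 16 refits, among them DESeq2 and those that left out wild type replicate 1 or 3 or one of the KAT7 mutant replicates 2 and 4, with an adjusted p of up to 0.193. In the GRCm38 annotation 19.1% of Kif7 exon bases overlap the antisense gene 9330171B17Rik.

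Dync2h1, the heavy chain of the ciliary dynein-2, was called higher, with 25.2, 23.1 and 25.2 CPM in wild type and 27.1, 31.8, 25.99 and 33.7 CPM in KAT7 mutant. Its log2 fold change was 0.27 ± 0.10 (SE), edgeR adjusted p 0.0415. The call was lost in 8 of 16 refits with an adjusted p of up to 0.175, among them DESeq2, and of the fits that left out a library it held only in those without KAT7 mutant replicate 1 or 3. Dync2li1 was not called, at -0.02 ± 0.13 (SE). Kif24, a regulator of cilium assembly, lay at 2.98 to 3.68 CPM in wild type and 1.77 to 2.92 CPM in KAT7 mutant and was not called (-0.60 ± 0.23, edgeR adjusted p 0.0569), but was called lower without KAT7 mutant replicate 1 (-0.76, edgeR adjusted p 0.0239). The dynein-2 intermediate chain genes stand in the symbol table as Wdr60 and Wdr34, outside the symbol rule, and were not called, at -0.08 and -0.15; they were chosen after their values were seen.

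Kifc2, a kinesin of neurons with its motor domain at the C-terminal end, had the second largest fall of the 45 tested motors. Its levels were 39.9, 35.4 and 35.1 CPM in wild type and 16.2, 17.6, 17.5 and 17.9 CPM in KAT7 mutant. The mutant libraries lay close together and each was far below every wild type library. Means were 36.8 ± 2.71 and 17.3 ± 0.722 CPM (SD, n = 3 and 4), 2.12-fold lower in KAT7 mutant (log2 fold change -1.09 ± 0.09, edgeR adjusted p 1.16e-08). In all refits the log2 value lay between -1.12 and -1.03, and of the genes called lower, 446 (itself included) fell at least as far. Its exons overlap those of Cyhr1 on the opposite strand over 4.15% of their bases, and Cyhr1 was not called (-0.01).

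The 5 other tested kinesins outside these classes were not called. Kif2a, which shortens microtubules and prunes axon branches, stood at 243 to 255 CPM in wild type and 254 to 265 CPM in KAT7 mutant (0.05 ± 0.05). Kif26a and Kif26b, kinesins without motor activity, had log2 fold changes of 0.18 ± 0.11 and 0.10 ± 0.11. Kif26a was at 112 CPM in wild type replicate 3 and at 76.9 and 81.0 CPM in the others, and was called higher without that library (0.37, edgeR adjusted p 0.00676). With all libraries and no filter on counts it was also called higher. Kifc3 and Kifc5b were at -0.02 and -0.17.

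**Figure D4:**
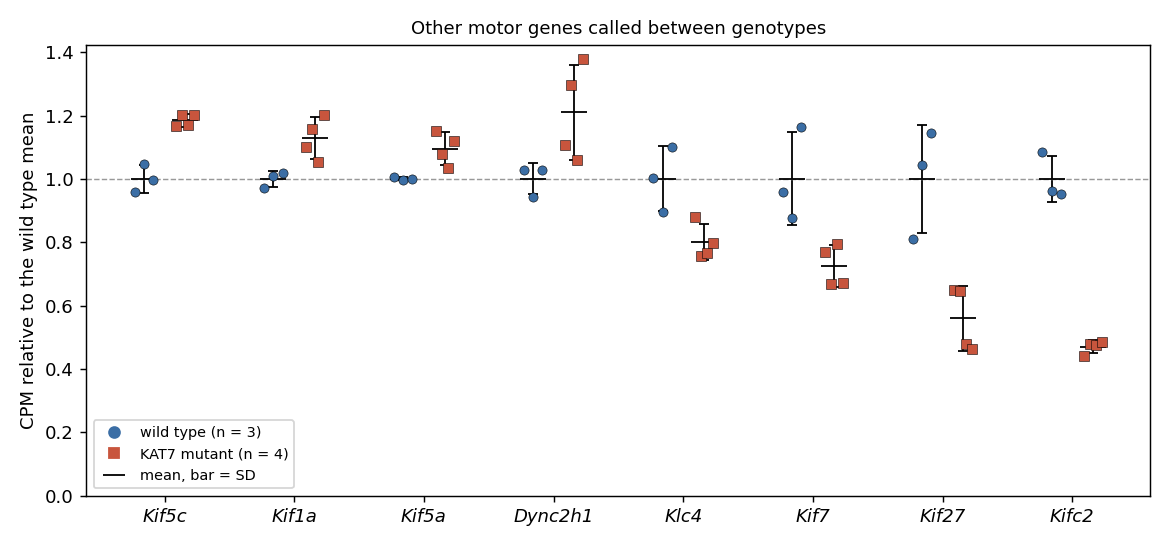
Levels relative to the wild type mean of each gene (y axis, starting at 0) for the 8 called motors outside dynein-1; circles are wild type (n = 3), squares KAT7 mutant (n = 4), lines the mean and bars the SD. The squares of Kifc2 lie close together and far below its circles, while those of Kif5a, Kif1a, Klc4 and Dync2h1 come close to the wild type circles.

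The called motors also differed in length. The 6 that were higher have deposited gene lengths of 4633 to 14398 bases and the 5 that were lower 2322 to 4522 bases. The 34 motors not called span both ranges, at 1334 to 14849 bases, and only 5 of the 11 calls held in all refits. Over all tested genes, split by length into 5 equal groups, 24.2% were called higher and 16% lower in the longest group (from 4744 bases), and 5.96% and 11.8% in the shortest (to 1513 bases). Spearman's rho between length and log2 fold change was 0.404 across the 45 tested motors and 0.0931 across all tested genes, which are not independent replicates. The part of gene length in the calls was not tested.

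Mitotic kinesins include Kif11, which pushes the spindle poles apart, Kif23 and Kif20a, which act in cytokinesis, Kif18a, which aligns chromosomes, and Kif2c, which corrects faulty attachments. All 12 were detected and tested, at mean levels of 2.33 to 34.9 CPM, and edgeR called 0 of 12 in either direction, as did DESeq2 and limma-voom. At an unadjusted p under 0.05 there was 1, Kif18a. Among all genes with means in this range of levels, 26.6% were called. Kif20a sets the top of that range, and the median level of the class was 5.96 CPM. Estimates were below 0 for 11 of the 12, from -0.50 ± 0.24 for Kif14 to 0.01 ± 0.08 for Kif20a, with SE of up to 0.24, so falls of this size could not be told from no change gene by gene.

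Kif11 stood at 19.0, 16.8 and 16.1 CPM in wild type and 18.0, 12.6, 14.9 and 13.4 CPM in KAT7 mutant (log2 fold change -0.23 ± 0.12, 95% interval -0.47 to 0.01). Kif23 stood at 6.06, 7.32 and 6.79 CPM in wild type and 8.65, 4.17, 4.96 and 4.40 CPM in KAT7 mutant (-0.28 ± 0.21). For both, KAT7 mutant replicate 1 was the highest mutant library, and for Kif23 the highest of all 7. Without that library edgeR called 3 of 12 lower: Kif11 (-0.34, adjusted p 0.0332), Kif18a (-0.60, 0.0244) and Kif23 (-0.58, 0.0174). In the same fit 16.3% of all tested genes were called lower. Kif15, which backs up Kif11 in the spindle and is also made in neurons, had 7.84, 7.78 and 7.58 CPM in wild type and 7.71, 7.77, 7.80 and 7.58 CPM in KAT7 mutant.

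Kif20a was the most abundant of the class, at 37.5, 34.1 and 32.5 CPM in wild type and 33.4, 35.7, 36.3 and 34.6 CPM in KAT7 mutant, while the next was Kif11 with a mean of 15.8 CPM. In the GRCm38 annotation 29.3% of its exon bases overlap Cdc23 on the opposite strand, a gene with 117 CPM in both genotypes. If the counting did not use strand, reads from the shared bases could come from either gene. In addition 38.6% of the 50-base words of Kifc1 transcripts occur in those of Kifc5b, so the values of that pair are uncertain. Summed over the 11 other genes, mitotic kinesins stood at 78.4, 76.4 and 80.4 CPM in wild type and 75.4, 66.9, 69.0 and 64.6 CPM in KAT7 mutant. The mutant sums were all lower, replicate 1 the least so; with Kif20a included they were 110.5 to 116 and 99.2 to 109 CPM.

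**Figure D5:**
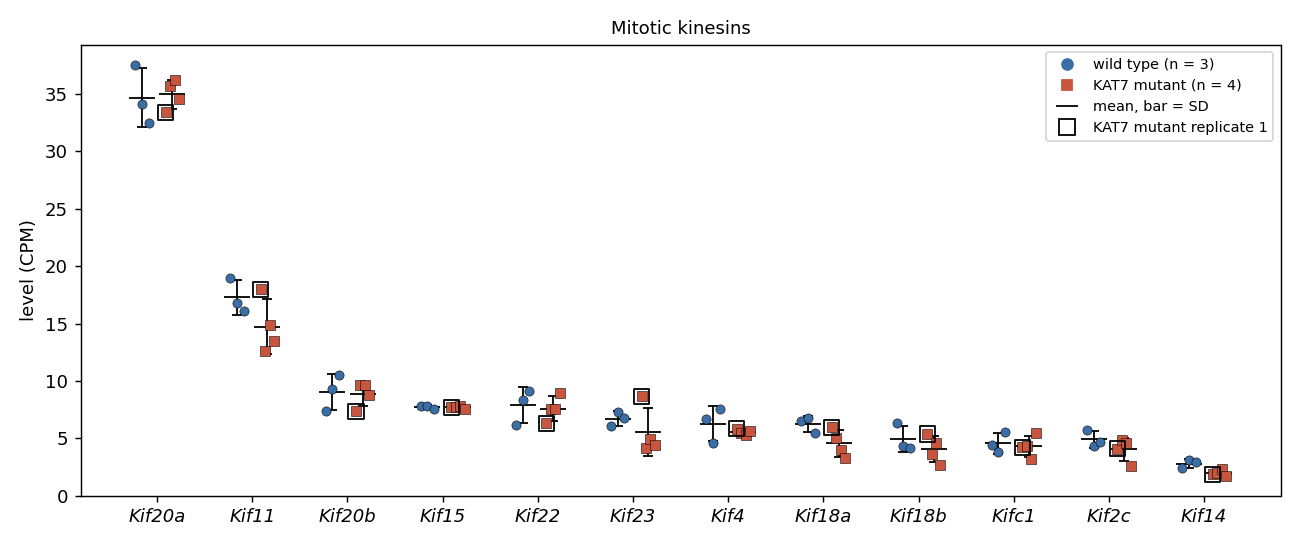
Levels (CPM, y axis starting at 0) of the 12 mitotic kinesins in each library; circles are wild type (n = 3), squares KAT7 mutant (n = 4), open outlines KAT7 mutant replicate 1, lines the mean and bars the SD. The genotypes overlap for each gene except Kif14, and replicate 1 is the highest square for Kif11, Kif18a, Kif18b, Kif23 and Kif4.

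Genes of the G2 and M phases are known for promoters that carry the element TTTGAA near the start, often with CCAAT boxes upstream. Both motifs were searched on both strands in windows of 300 bases of RefSeq promoters (GRCm38.p6), together with TTTAAA, which reads the same on both strands. TTTGAA was present in 10 of 11 windows of mitotic kinesins (90.9%), in 1 of 21 windows of axonal transport motors (4.76%) and in 17.9% of all 32851 windows. CCAAT was present in 63.6%, 28.6% and 37.4% of these. TTTAAA was present in 18.2%, 4.76% and 13.2%. The mitotic kinesin window without TTTGAA was that of Kif18a, and Kif20a has no window in the table. Of the 46 windows of motor genes, 34 have their first 20 bases after the start in a GENCODE M21 transcript of the gene. The starts of the other windows were not checked further, so some may not be the start in use.

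The 4 stretches that follow are examples from mitotic kinesins with TTTGAA, on either strand, in the 150 bases before the start. Each shows those 150 bases, 5′ to 3′ on the strand of the gene. Kif11 is at chr19:37376232-37376381 (plus), Kif15 at chr9:122950931-122951080 (plus), Kif22 at chr7:127042421-127042570 (minus) and Kif2c at chr4:117178773-117178922 (minus). Capitals mark TTCAAA, which is TTTGAA on the other strand, and ATTGG, which is CCAAT on the other strand.
Kif11: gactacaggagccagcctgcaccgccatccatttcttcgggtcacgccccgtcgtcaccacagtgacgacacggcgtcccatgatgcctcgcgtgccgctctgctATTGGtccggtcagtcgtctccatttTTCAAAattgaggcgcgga
Kif15: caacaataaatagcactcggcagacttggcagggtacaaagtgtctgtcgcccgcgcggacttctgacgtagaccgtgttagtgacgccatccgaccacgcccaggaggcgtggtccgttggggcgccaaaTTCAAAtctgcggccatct
Kif22: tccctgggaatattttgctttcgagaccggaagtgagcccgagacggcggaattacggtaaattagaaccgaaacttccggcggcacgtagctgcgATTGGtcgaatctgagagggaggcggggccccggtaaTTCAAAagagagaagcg
Kif2c: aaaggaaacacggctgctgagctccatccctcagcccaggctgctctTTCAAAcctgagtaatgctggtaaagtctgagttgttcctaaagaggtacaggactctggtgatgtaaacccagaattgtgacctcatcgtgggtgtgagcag
In Kif11, Kif15 and Kif22 the capitals of TTCAAA begin 19, 19 and 17 bases before the start, and in Kif2c 103 bases before it. In Kif23, Kif18b, Kifc1, Kif20b and Kif4 the motif begins 1 to 19 bases after the start. In Kif14 it begins 228 bases before the start. A match to these letters is a description of the sequence, not a binding site.

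Spindle and cell division genes other than the numbered kinesins were read beside the mitotic motors. The list includes Cenpe, a kinesin outside the symbol rule, which was not called (0.35 ± 0.33). Of 23 tested, 4 fell and 0 rose, where 15.8% of all tested genes fell, with a median of -0.21: Racgap1, a partner of Kif23 in cytokinesis (-0.68 ± 0.10), the cyclin gene Ccnb2 (-0.57), the spindle checkpoint gene Bub1b (-0.44) and Mki67 (-0.21). The list had 1 to 5 lower with 1 library left out (1 if wild type replicate 3 or else KAT7 mutant replicate 2 was omitted, 2 without wild type replicate 1) and 1 by DESeq2; Racgap1 was called in all refits. Its summed level was 299 to 319.5 CPM in wild type and 256 to 280 CPM in KAT7 mutant. Radial glia markers, which mark the dividing stem cells of the cortex, fell in 7 of 10 and rose in 0, with sums of 752 to 789 and 475 to 533 CPM. They included Pax6 (-1.48), Tnc (-1.37) and Hes5 (-1.31). Ptprz1 alone had means of 457 CPM in wild type and 280 CPM in KAT7 mutant, so it weighs heavily in the radial glia sums. Sox2 (0.07), Fabp7 (-0.20) and Hopx (-0.29) were not called. Radial glia markers had 6 or 7 lower with any library left out.

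The partners of dynein showed smaller differences than Dync1i1. Of 12 tested subunits of dynactin, the complex that links dynein to cargo, edgeR called 0, with 0 at an unadjusted p under 0.05, and DESeq2 and limma-voom also called 0; log2 fold changes ran from -0.08 to 0.22. Of 8 tested dynein light chains 2 fell, Dynll2 (-0.19) and Dynll1 (-0.15), where 15.8% of all tested genes fell. Only 1 light chain was lower when any one of wild type replicates 1 to 3 or KAT7 mutant replicates 2 and 4 was left out. Of 13 tested dynein regulators and adaptors 4 were called, near the 28.9% of all tested genes: Bicd1 (0.39) and Hook1 (0.28) rose and Nde1 (-0.61) and Hook2 (-0.32) fell. With a library left out 1 or 2 were higher (1 if wild type replicate 2 or KAT7 mutant replicate 4 was omitted) and 1 or 2 lower (2 only without KAT7 mutant replicate 1 or 4). The dynein regulators Pafah1b1 and Ndel1, chosen after their values were seen, had log2 fold changes of 0.07 and -0.02.

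Adaptors and regulators of kinesins rose in 2 and fell in 3 of 20 tested genes, a share below the 28.9% called over all tested genes. Ppfia2, a liprin-alpha scaffold protein of synapses, fell from 284 to 166 CPM (-0.78 ± 0.05, edgeR adjusted p 6.42e-10). The kinesin-1 adaptor genes Sybu and Mapk8ip1 fell by 0.25 and 0.23 on the log2 scale, and Kidins220 rose by 0.17. Leaving out wild type replicate 1 or KAT7 mutant replicate 2 left 1 higher. Among microtubule-associated proteins 3 of 13 rose and 2 fell, where 13.1% of all tested genes rose and 15.8% fell. They included Map6 (-0.38), Dclk1 (0.32), Map1a (-0.32) and Map7d2 (0.27). Higher calls among these were 0 without wild type replicate 2 (Dclk1 then at 0.21), and 1 when wild type replicate 3 or KAT7 mutant replicate 4 was left out. The medians of both lists were near 0, at -0.01 and 0.01.

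Neuron markers were abundant in every library, with sums of 11041 to 11710 CPM in wild type and 9990.3 to 10723 CPM in KAT7 mutant over 10 genes, of which 2 rose and 2 fell. Stmn2 (-2.02), Rbfox3 (0.45) and Tubb3 (-0.21) were the largest of these, and 6 were not called. The mean of Stmn2 alone was 1334 CPM in wild type and 328 CPM in KAT7 mutant. The mean of the sum over all 10 was 11480 and 10450 CPM, so Stmn2 weighs heavily in that difference. Intermediate progenitor markers rose in 1 (Gadd45g, 1.02) and fell in 2 of 6 (Eomes, -0.40, and Insm1, -0.39), with sums of 199.9 to 233 and 158 to 204 CPM. Interneuron markers rose in 4 and fell in 1 of 8, led by Gad2 (0.76), Gad1 (0.70) and Dlx5 (0.55), with sums of 263 to 419 and 330.0 to 453 CPM. Oligodendrocyte lineage markers rose in 4 of 6 (Sox10, 1.87, Olig2, 1.67, and Olig1, 1.54) and microglia markers in 4 of 7 (Csf1r, 1.05, C1qb, 0.71, and C1qa, 0.63), with none falling. Their sums were 25.4 to 30.3 and 30.6 to 46.2 CPM, and 18.9 to 22.1 and 28.8 to 38.9 CPM. Astrocyte markers fell in 2 of 4 tested (Gfap, -1.70, and Aldoc, -0.97), with sums of 140.2 to 150.02 and 120.2 to 146 CPM. Sums cover every listed gene in the table. Beside these marker counts, 13.1% of all tested genes rose and 15.8% fell. Over the fits that left out a library, microglia had 2 to 4 higher (2 if wild type replicate 1 or one of the KAT7 mutant replicates 3 and 4 was omitted), oligodendrocyte lineage 3 or 4 and interneurons 3 to 5; the lower interneuron call (Sst) was lost without wild type replicate 1 and without each of KAT7 mutant replicates 2 to 4. Gadd45g was at 20.3 CPM in KAT7 mutant replicate 1 and at 7.91 to 8.93 CPM in the other mutant libraries (4.27 to 7.13 CPM in wild type). Without that library its log2 fold change was 0.58 (edgeR adjusted p 0.0165), and it was not called by DESeq2 or the robust edgeR fit. Eomes was not called without wild type replicate 3 (-0.20) or in those fits, and Dlx5 was at 0.34 and not called without KAT7 mutant replicate 1.

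Markers of endothelium (3 tested), red blood cells (4) and choroid plexus or ependyma (4) had 0 calls by edgeR, with 1 each at an unadjusted p under 0.05, and 0 by DESeq2; limma-voom called 1, a red blood cell gene. Without wild type replicate 1, the highest wild type library for the red blood cell sum, all 4 red blood cell genes were higher, and 1 was without KAT7 mutant replicate 2. Likewise 1 endothelial gene was higher if wild type replicate 2 or KAT7 mutant replicate 4 was omitted, and 1 choroid plexus gene without replicate 3 of either genotype. Their sums were 4.99 to 6.75 and 5.79 to 8.07 CPM, 22.2 to 129 and 52.5 to 162 CPM, and 25.6 to 35.2 and 27.6 to 46.6 CPM in wild type and KAT7 mutant. No marker of these lists was at 0 in all libraries. The part of cell makeup in the motor values was not tested.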

How the data were processed

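Values were raw counts per gene, deposited by the authors as 1 table of 7 libraries with a gene length in bases (another quantity, used per kilobase only). Counting used featureCounts and build mm9, per the submitters' processing notes; no source used here names the aligner, annotation or strand setting. Totals were 8272487 to 8813060 counts. Columns were matched by the samples' descriptions. Symbols came from a RefSeq table (GRCm38.p6) by Entrez identifier for 24176 of 26286 rows, promoters from RefSeq for 41 of 53 members, and exon overlaps from GENCODE M21 (GRCm38); no gene coordinates are given in mm9.

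Genes were filtered with filterByExpr by group (minimum count 10), scaled by TMM (factors 0.989 to 1.01) and tested with edgeR 4.0.16 (R 4.3.3; quasi-likelihood F test, two-sided), called at an adjusted p under 0.05. SE is the absolute log2 value divided by root F, and 95% intervals are normal. The fit was tested on simulated counts. Alternatives were RLE, upper-quartile or no factors, other filters, DESeq2 1.42.0, limma-voom (limma 3.58.1), a robust fit, a replicate block, each library left out, other class memberships and, chosen after seeing the data, the mitotic sum without Kif20a and the genes of the lists under these alternatives, and an adjusted p under 0.01.

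The members and lists were chosen with earlier results of these data known. Named were Kat7, every called member, the 4 most abundant uncalled members of each class, other members by class, up to 4 called genes per partner list and 3 per marker list. Protein sequences were not used here.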

Additional observations from a re-analysis of the deposited data

How the results depend on the processing

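Of 731 values of single motor genes under an alternative, 644 kept their direction and side of the threshold, 39 lost a call, 7 gained one and 41 changed sign. Motors called higher went from 6 to 3, and those called lower from 5 to 3, both with the replicate number as a block and at an adjusted p under 0.01; lower calls were also 3 by DESeq2. With 1 library left out they ranged from 3 to 7 and from 2 to 9. Axonal transport motors called higher went from 5 to 3, and lower from 2 to 1, with the block, at an adjusted p under 0.01 and without dynein-1; lower calls were also 1 by DESeq2, and the ranges with 1 library left out were 3 to 6 and 1 to 2. With no count filter 3 were lower, the added one being Klc3. Axonal lower calls were 1 without wild type replicate 1 or 3 or any of KAT7 mutant replicates 2 to 4. Mitotic kinesins called lower ranged from 0 to 3 with 1 library left out, and none was called higher in any fit run. Over all genes, 1034 were higher and 1532 lower at an adjusted p under 0.01 (1793 and 2163 at 0.05), and 1273 to 1776 higher and 1826 to 2212 lower with 1 library left out. Deviations of same-numbered libraries correlated at 0.02, 0.01 and -0.03 over all tested genes. This showed no pairing but cannot exclude one that acts on some genes, and no source used here says whether the numbers pair mice. Whether calls lost under the block are weaker effects was not tested. The mitotic kinesins and the ciliary motors, at means of 2.33 to 34.9 CPM, had median SE of 0.18 and 0.16, against 0.05 for axonal transport motors. Why calls were lost in the other fits was not tested. The 41 values of motors that changed sign all belonged to genes not called in either fit. With all libraries they were Dync1i2 (0.000744 with RLE, 0.000756 by DESeq2, 0.00321 with the block), Kif15 (0.000706, 0.000596 and 0.00496 in the same fits), Kif3c (-0.00215 with upper-quartile factors, -0.0105 with library size only, -0.000733 with no count filter, -0.0186 with the block), and, with library size only, Kif3a (-0.00386) and Kif20a (-0.000556). With 1 library left out the genes that changed sign ranged as follows on the log2 scale: Dync1i2 -0.0175 to 0.00618, Kif13a -0.0883 to 0.00379, Kif1c -0.17 to 0.0139, Kif3a -0.0174 to 0.0440, Kif3c -0.0365 to 0.0253, Kif5b -0.00684 to 0.0740, Kifc5b -0.36 to 0.0340, Kifc3 -0.0672 to 0.0103, Klc2 -0.0532 to 0.0180, Kif20a -0.0321 to 0.0681, Kif22 -0.21 to 0.0575, Kif15 -0.0171 to 0.00499, Dync2li1 -0.0760 to 0.0491, Kif20b -0.16 to 0.0910 and Kifc1 -0.23 to 0.0719.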
